A study of Mus musculus with 9 samples.

Results

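The genes described here encode 10 secreted or granule-stored proteins of myeloid cells. They are the S100 proteins S100a8 and S100a9, the lipocalin Lcn2, the granule proteins Ngp, Camp, Ltf and Mmp8, and the whey acidic protein (WAP) domain proteins Wfdc17, Wfdc21 and Slpi. They were taken by symbol from the 34866 Ensembl genes of the deposited tables, and all 10 were found. The genes were chosen by what they encode and with the measured TPM differences between the oxygen groups in view, among them the lower level of Wfdc17 in chronic hypoxia. Differences between the oxygen groups are therefore given as a description of these genes, and nothing is read from how many of them passed a test.

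Expression was measured by mRNA sequencing (TruSeq, paired ends of 75 bases) in 9 cultures of mouse primary macrophages, 3 biological replicates for each of 3 groups. Standard oxygen cultures spent 7 days in standard oxygen, acute hypoxia cultures had a final 3 hours in 1% oxygen after growth in standard oxygen, and chronic hypoxia cultures spent 7 days in 1% oxygen. All groups were grown in alpha-MEM with serum, the supplement abbreviated PSQ and L929-conditioned medium, which carries the macrophage growth factor CSF1 secreted by that fibroblast line. Strain, sex and tissue of origin are not given in the sources used here, nor is whether replicates came from separate animals. Levels are given in TPM, a length-corrected share of the transcripts of a library.

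S100A8 and S100A9 are calcium-binding proteins that pair into calprotectin, which withholds zinc and manganese from microbes and, once released, signals through TLR4 and RAGE. Lipocalin-2, lactoferrin and the cathelicidin Camp are antimicrobial proteins best known from the secondary granules of neutrophils, where Ngp and the collagenase Mmp8 are also stored. WAP domain proteins such as Slpi inhibit serine proteases of the neutrophil. Macrophages make several of these proteins, and C/EBP transcription factors are known to drive many of the genes during granule formation.

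Libraries of different groups share digits in their sample descriptions, whose meaning the labels do not state. These are called codes X, Y and Z, and each group holds 1 library of each code. Code X is replicate 1 of every group. Code Y is replicate 2 of acute and chronic hypoxia and replicate 3 of standard oxygen, and code Z is replicate 3 of acute and chronic hypoxia and replicate 2 of standard oxygen. The 3 libraries of code Z stood apart: between 6.91% and 8.08% of 11065 genes differed by at least 1 log2 unit between a code Z library and another library of its group, against 1.88% to 2.01% between codes X and Y. Values are given below in the order X, Y, Z, and results are given with and without the code Z libraries.

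The genes lie on 4 chromosomes in GRCm38 coordinates (GENCODE M21), and all are protein-coding. S100a8 (chr3:90668978-90670035, plus strand) and S100a9 (chr3:90692632-90695721, minus strand) are 22596 bases apart. Wfdc17 (chr11:83703991-83706268, plus) and Wfdc21 (chr11:83746940-83752642, plus) are 40671 bases apart, with Wfdc18 between them. Camp (chr9:109847379-109849617, minus), Ngp (chr9:110419747-110423012, plus), Ltf (chr9:111019271-111042767, plus) and Mmp8 (chr9:7558456-7568485, plus) are on chromosome 9. Lcn2 (chr2:32384633-32388252, minus) and Slpi (chr2:164354070-164389095, minus) are on chromosome 2.

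The 250 bases before the RefSeq start of each gene (GRCm38.p6) were searched on both strands for motifs of factors that act on these genes or on hypoxia, and 9 of the 10 genes had an entry. A C/EBP motif, TTGCNNAA, was found before the RefSeq starts of S100a9, Lcn2, Ngp, Ltf, Mmp8 and Slpi, 6 of 9 genes, against 9.56% of 32851 such regions. The Lcn2 region begins in annotated exon inside the GENCODE gene, so its match does not lie before that gene. The Slpi region also lies inside the GENCODE span of its gene. Those of S100a8, Ngp, Camp, Ltf and Wfdc17 run into annotated exon near their start, Camp with only 89 bases before it. The core of the hypoxia response element, ACGTG or GCGTG, was found before Ngp and Slpi, 2 of 9 genes, against 38.6% of regions. AP-1 (TGANTCA, in 6.75% of regions) and NF-kappaB (in 7.25%) motifs were found before none of the 9. The upstream sequences of 5 genes are shown because these genes take the different courses described below: S100a8 and Ngp were lower in chronic hypoxia, Mmp8 and Slpi were higher, and S100a9 was listed at or near 0 beside S100a8. Each is printed 5′ to 3′ on the gene's strand up to the last base before the start, or before the first annotated exon base where that comes earlier, with matches to the C/EBP or hypoxia motif in capitals.
S100a8, chr3:90668821-90668977, plus strand: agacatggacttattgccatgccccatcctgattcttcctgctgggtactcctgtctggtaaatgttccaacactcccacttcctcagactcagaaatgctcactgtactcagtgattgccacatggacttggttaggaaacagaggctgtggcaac
S100a9, chr3:90695722-90695971, minus strand: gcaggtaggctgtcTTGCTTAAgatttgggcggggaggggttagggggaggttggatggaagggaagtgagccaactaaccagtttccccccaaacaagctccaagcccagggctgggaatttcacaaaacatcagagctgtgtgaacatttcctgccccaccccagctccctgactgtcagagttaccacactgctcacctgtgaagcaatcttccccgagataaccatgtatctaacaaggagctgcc
Ngp, chr9:110419558-110419746, plus strand: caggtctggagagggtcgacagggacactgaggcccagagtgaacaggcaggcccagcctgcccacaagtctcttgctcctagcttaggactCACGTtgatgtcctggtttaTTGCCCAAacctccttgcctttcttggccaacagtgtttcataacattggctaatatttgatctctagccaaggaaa
Mmp8, chr9:7558179-7558428, plus strand: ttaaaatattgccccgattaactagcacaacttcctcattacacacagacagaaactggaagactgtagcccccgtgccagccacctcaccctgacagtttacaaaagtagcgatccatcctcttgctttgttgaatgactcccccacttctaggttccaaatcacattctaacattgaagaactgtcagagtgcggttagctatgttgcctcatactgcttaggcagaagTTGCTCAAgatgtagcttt
Slpi, chr2:164356508-164356757, minus strand: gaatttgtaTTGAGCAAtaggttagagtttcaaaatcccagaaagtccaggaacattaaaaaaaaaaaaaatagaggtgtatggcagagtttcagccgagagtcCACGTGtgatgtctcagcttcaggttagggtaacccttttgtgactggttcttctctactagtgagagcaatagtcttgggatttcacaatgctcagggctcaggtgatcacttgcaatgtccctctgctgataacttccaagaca
S100a8 thus had no match to any of the 4 motifs in its window, of which only 157 bases lie before annotated exon. Mmp8 had a C/EBP match 19 bases before the start, and Slpi had one 241 bases before it. Ngp had C/EBP matches 138 and 11 bases before the start, and the nearer one lies in annotated exon and is not printed. The hypoxia motif of Slpi is a palindrome that matches once on each strand. A match is a run of letters and no measured binding site.

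S100a8 (ENSMUSG00000056054) was among the most abundant transcripts of these cells, and its level in chronic hypoxia was 3.15-fold below that in standard oxygen. It stood at 912, 895 and 1593 TPM under standard oxygen, at 937, 1023 and 1906 TPM in acute hypoxia, and at 274, 258 and 582 TPM in chronic hypoxia. Every chronic library was below every library of the other groups, and in each group code Z was the highest. Group means were 1133 ± 398, 1289 ± 537 and 371 ± 183 TPM (SD, n = 3). Within codes, standard oxygen exceeded chronic hypoxia 3.33-fold, 3.46-fold and 2.74-fold. The difference, chronic minus standard, was -1.66 on the log2(TPM + 1) scale (SE 0.372), and it did not pass the threshold of an adjusted p of 0.05 in limma fitted over all genes without a block (adjusted p = 0.073). The fit blocked by code called it (limma, SE 0.0912, adjusted p = 0.00567), and without the code Z libraries it was -1.76 (limma, adjusted p = 0.00126). Without a block, leaving out chronic replicate 3 alone also gave a call (-2.03, limma adjusted p = 0.0253). The acute minus standard difference was 0.16, with a limma adjusted p of 1 without a block (SE 0.339) and 0.345 with the code block (SE 0.0618).

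S100a9 (ENSMUSG00000056071), whose protein is the usual partner of S100A8, was listed at 0 TPM in 8 libraries and at 0.231 TPM in the standard oxygen library of code Z. S100a8 ranked at 156 of the 34866 genes by its mean over the 9 libraries. None of the 75-base stretches of the longest annotated transcripts of S100a8 and S100a9 occurred in another listed gene. The values of S100a9 are those of the deposited table, and whether the annotation or read counting behind it set them at 0 was not tested.

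Lcn2 (ENSMUSG00000026822), an iron-siderophore binding protein of innate immunity, differed more between codes than between oxygen groups. Its level was 254, 219.6 and 1495 TPM in standard oxygen, 244, 199 and 1137 TPM after acute hypoxia, and 76.0, 55.6 and 685 TPM in chronic hypoxia. The code Z library was 6.31 times the mean of the other two in standard oxygen, 5.13 times in acute hypoxia and 10.4 times in chronic hypoxia, so that chronic code Z stood above standard codes X and Y. Within every code chronic hypoxia was nonetheless the lowest. The chronic minus standard difference was -1.61 (SE 1.12, limma adjusted p = 0.44) without a block, the same size with an SE of 0.171 (limma adjusted p = 0.0122) with the code block, and -1.85 (limma adjusted p = 0.00433) without code Z. Leaving out 1 library moved the difference without a block between -2.73 and -0.72.

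**Figure D1:**
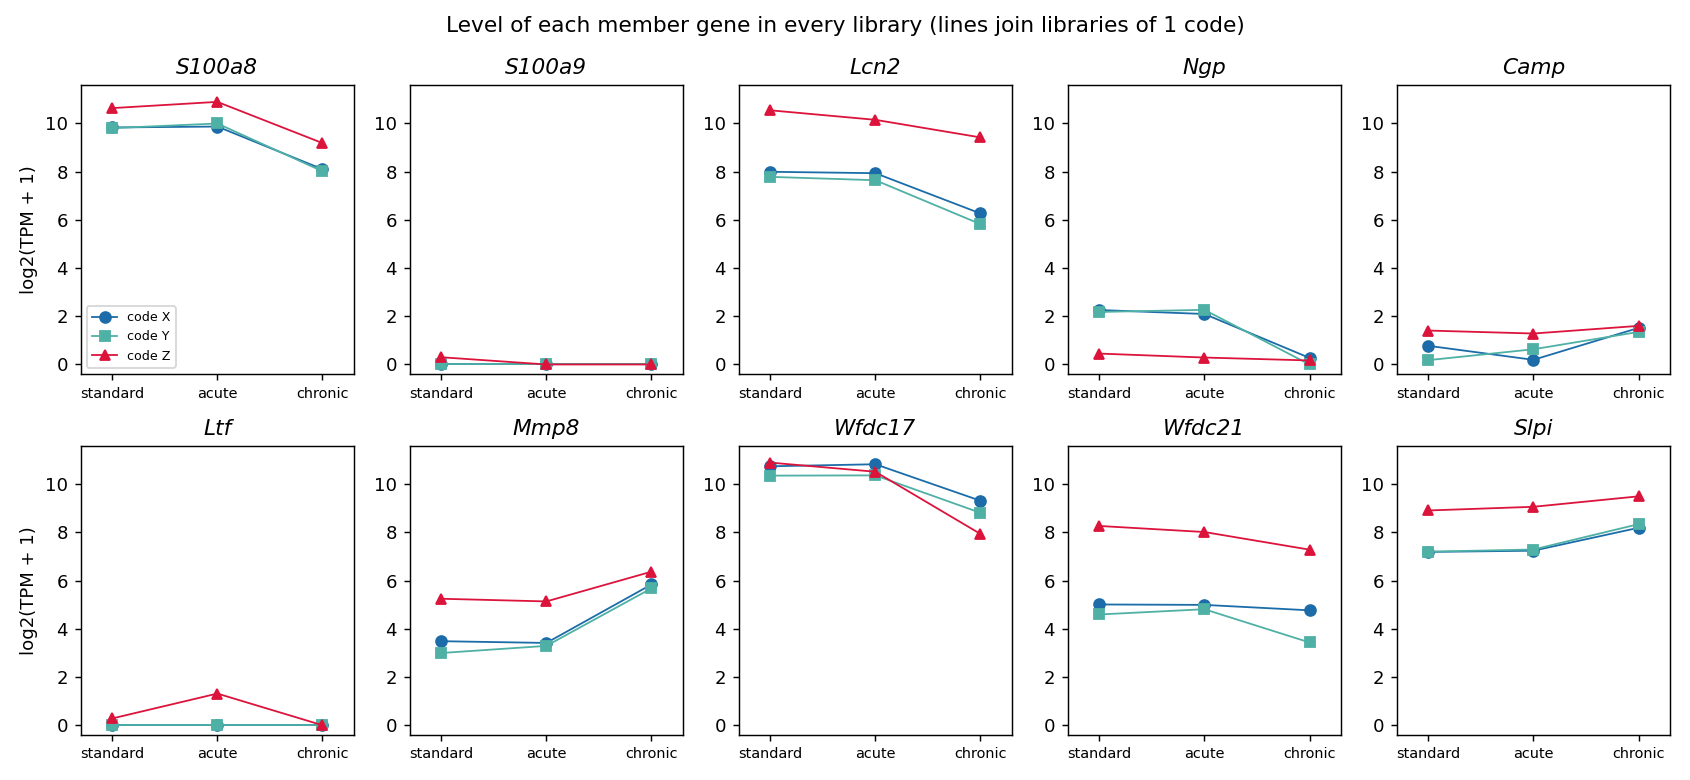
Level of each of the 10 genes in every library, as log2(TPM + 1) on the vertical axis, for standard oxygen, acute hypoxia and chronic hypoxia; each line joins the 3 libraries of 1 code. For S100a8 and Lcn2 the 3 lines run flat from standard to acute and drop in chronic, with the code Z line (triangles) on top, while S100a9 and Ltf lie at or near 0.

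Of the neutrophil granule genes, Mmp8 (ENSMUSG00000005800), the neutrophil collagenase, was higher in chronic hypoxia. It was at 10.2, 6.98 and 37.0 TPM in standard oxygen, 9.66, 8.80 and 34.2 TPM after acute hypoxia, and 56.3, 50.3 and 81.8 TPM in chronic hypoxia. The chronic libraries did not overlap those of either other group, and the ratio of chronic to standard was 5.52, 7.21 and 2.21 in codes X, Y and Z. The difference was 2.05 (SE 0.564, limma adjusted p = 0.108) without a block, and it was called with the code block (limma, SE 0.313, adjusted p = 0.0214) and without code Z (2.52, limma adjusted p = 0.0026). With 1 library left out it ranged from 1.60 to 2.72 without a block, and leaving out standard replicate 2 gave a call (limma adjusted p = 0.0106). Code Z exceeded the mean of X and Y 4.31-fold in standard oxygen and 1.53-fold in chronic hypoxia, and this change of the ratio was not tested.

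Ngp (ENSMUSG00000032484), the neutrophilic granule protein, was low throughout, and lowest in chronic hypoxia. It was at 3.79, 3.53 and 0.368 TPM in standard oxygen, 3.27, 3.81 and 0.221 TPM after acute hypoxia, and 0.208, 0 and 0.123 TPM in chronic hypoxia. Unlike Lcn2 and Mmp8, it was lower in code Z than in X and Y in standard oxygen and acute hypoxia. The chronic minus standard difference of -1.48 did not pass the test without a block (limma adjusted p = 0.156) or with it (0.0767), and was -2.08 (limma adjusted p = 0.0056) over codes X and Y alone. Without a block, leaving out standard replicate 2 alone gave -2.07 (limma adjusted p = 0.0181). Ngp entered these fits only through the X and Y libraries of standard oxygen or acute hypoxia, where it was high, which favours a difference.

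Camp (ENSMUSG00000038357), the mouse cathelicidin, was at 0.712, 0.133 and 1.65 TPM in standard oxygen, 0.143, 0.548 and 1.44 TPM after acute hypoxia, and 1.86, 1.55 and 2.03 TPM in chronic hypoxia. It entered the fits that include chronic hypoxia through its chronic libraries, which favours a difference, and its chronic minus standard difference of 0.70 passed neither without a block (limma adjusted p = 0.279) nor with the code block (0.122). Ltf (ENSMUSG00000032496), the iron-binding lactoferrin, was listed at 0 in 7 libraries, at 0.214 TPM in standard oxygen code Z and at 1.49 TPM in acute hypoxia code Z. It was not tested.

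Wfdc17 (ENSMUSG00000069792), a secreted WAP domain protein of activated macrophages, was the most abundant of the 10 transcripts in standard oxygen. It stood at 1715, 1311 and 1907 TPM in standard oxygen, 1819, 1320.1 and 1466 TPM after acute hypoxia, and 636, 449 and 244 TPM in chronic hypoxia, and no chronic library reached any other. Means were 1644 ± 304, 1535 ± 256 and 443 ± 196 TPM (SD, n = 3). It was the only one of the 10 genes called without a block: chronic minus standard was -1.98 (SE 0.349, limma adjusted p = 0.0443), with an adjusted p of 0.0238 under the code block. Code Z was the highest of its group in standard oxygen and the lowest in chronic hypoxia. Without code Z the difference was -1.49 (limma adjusted p = 0.0124). The call without a block held on leaving out chronic replicate 3 and was lost on leaving out any of the other 5 libraries (limma adjusted p between 0.0624 and 0.182).

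Wfdc21 (ENSMUSG00000051748), its neighbour on chromosome 11, differed most between codes. It was at 31.2, 23.2 and 307 TPM in standard oxygen, 30.9, 27.1 and 258 TPM after acute hypoxia, and 26.2, 9.82 and 155 TPM in chronic hypoxia. Code Z exceeded the mean of X and Y 11.3-fold, 8.90-fold and 8.60-fold in the 3 groups, and the groups overlapped. Chronic hypoxia was the lowest in each code, yet the difference of -0.80 passed neither without a block (limma adjusted p = 0.745) nor with the code block (0.0512), nor without code Z (-0.70, limma adjusted p = 0.318).

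Slpi (ENSMUSG00000017002), the secretory leukocyte protease inhibitor, was higher in chronic hypoxia within each code. Its level was 145, 146 and 481 TPM in standard oxygen, 150.4, 156 and 534 TPM after acute hypoxia, and 292, 324 and 722 TPM in chronic hypoxia. The code Z libraries of standard oxygen and acute hypoxia lay above the X and Y libraries of chronic hypoxia, so the groups overlapped. The chronic minus standard difference was 0.91 (SE 0.555, limma adjusted p = 0.376) without a block, had an SE of 0.123 (limma adjusted p = 0.0169) with the code block, and was 1.07 (limma adjusted p = 0.0026) without code Z. With 1 library left out it ranged from 0.50 to 1.48 without a block.

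**Figure D2:**
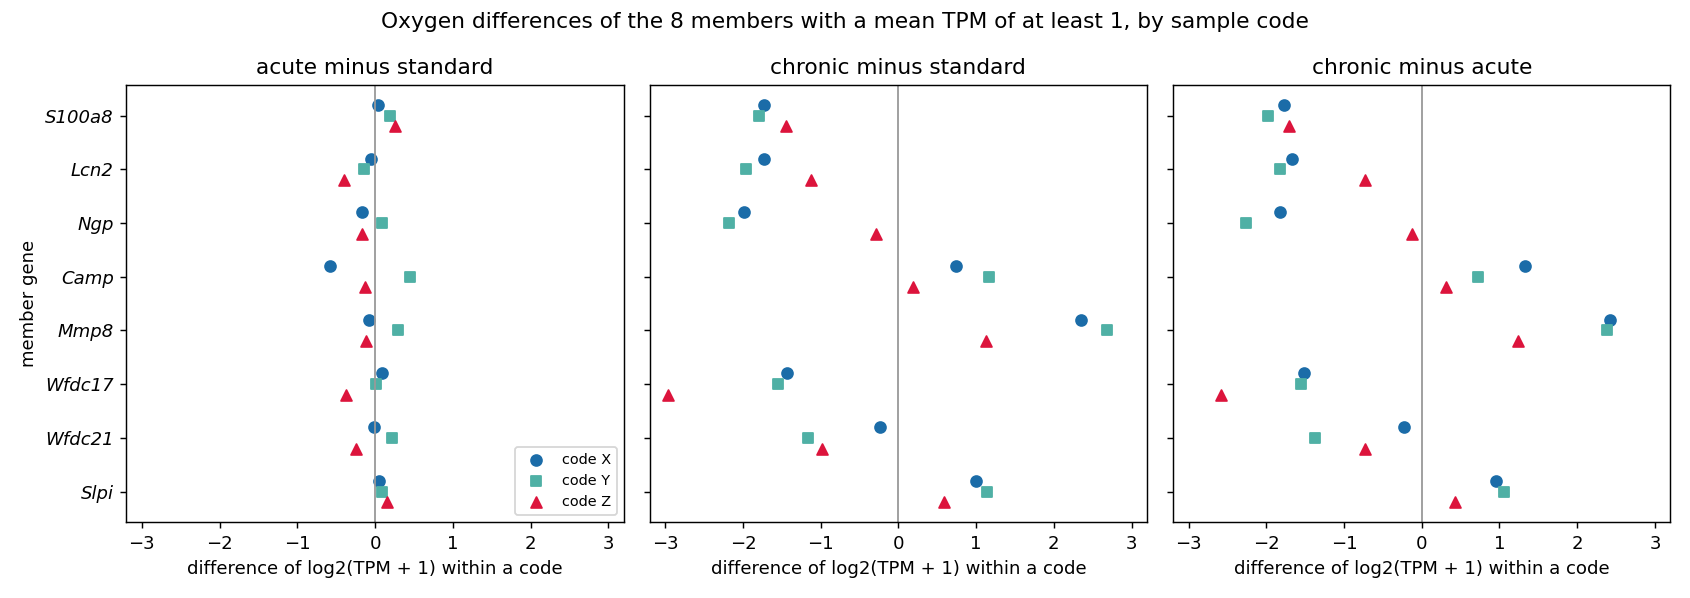
Differences of log2(TPM + 1) within each code for the 8 genes with a mean of at least 1 TPM over the 9 libraries, in 3 panels (acute minus standard, chronic minus standard, chronic minus acute); each point is 1 code and the vertical line marks no difference. In the acute panel Camp spreads from -0.58 to 0.45 and most other points lie nearer to 0, while in both chronic panels Mmp8, Slpi and Camp lie to the right and S100a8, Lcn2, Ngp, Wfdc17 and Wfdc21 to the left in all 3 codes.

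After 3 hours of 1% oxygen the 7 genes tested differed from standard oxygen within codes by -0.39 (Lcn2, code Z) to 0.30 (Mmp8, code Y). Camp, Ltf and S100a9 were not tested in this comparison. Of the 7 genes tested, limma called 0 without a block, where 0.0273% of 10987 genes were called, and 0 with the code block, where 0.710% were. Before adjustment, 0 of the 7 were under 0.05 without the block, where 785 of 10987 genes were. With the block 1 was, S100a8, where 1555 of the 10987 genes were. The differences, acute minus standard, ran from -0.20 for Lcn2 to 0.16 for S100a8, and with the code block the 95% intervals were -0.41 to 0.01 for Lcn2 and 0.00 to 0.32 for S100a8. Without a block the intervals were wider, at -2.434 to 2.04 for Lcn2, -0.65 to 0.98 for S100a8 and -2.945 to 2.912 for Wfdc21. S100a8 and Slpi were higher in acute hypoxia in all 3 codes and Lcn2 was lower in all 3. Without code Z, 0 of the 7 were called where 2.95% of genes were. The groups overlapped for all 7, whereas 12.5% of genes had groups apart.

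In chronic hypoxia against standard oxygen, 1 of the 8 genes tested was called without a block, Wfdc17, where 2.69% of 11067 genes were called. With the code block 5 of 8 were called, where 18.4% of genes were. They were Mmp8 and Slpi higher (15.1% of genes) and S100a8, Lcn2 and Wfdc17 lower (3.30% of genes). Without code Z 6 of 8 were called, where 21.1% of genes were. They were these 5 and Ngp, which entered only through its standard oxygen libraries. The median difference was -1.14 over the 8 genes and 0.16 over all genes. Rescaling by the median of ratios removed the shift of all genes and left each of the 8 on its side, and with the code block it added Wfdc21 (-0.97, limma adjusted p = 0.044) to the calls, 2 higher against 4 lower, where 11.4% of genes were called, 5.53% higher and 5.92% lower. The chronic libraries lay wholly above or below the standard ones in 4 of the 8 genes (S100a8, Ngp, Wfdc17 and Mmp8), and so did those of 29.6% of all genes. For Ngp the filter, passed only through its standard oxygen libraries, favours this.

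Chronic against acute hypoxia shares the chronic libraries with that comparison and gave differences of similar size. S100a8 differed by -1.82, Wfdc17 by -1.88, Lcn2 by -1.41, Ngp by -1.40, Wfdc21 by -0.78, Camp by 0.79, Slpi by 0.81 and Mmp8 by 2.02. In limma without a block 0 of 8 were called (0.695% of 11087 genes). Before adjustment 5 of the 8 were under 0.05, as were 2305 of the 11087 genes. With the code block the calls were again 5 of 8 (15.5% of genes), with limma adjusted p-values of 0.003 for S100a8, 0.0133 for Wfdc17, 0.0138 for Mmp8, 0.0197 for Lcn2 and 0.0222 for Slpi. Without code Z 6 of 8 were called (16.3% of genes), those 5 and Ngp, which entered only through its acute libraries. The groups did not overlap in 5 of the 8 genes, these being the 4 named above and Camp (27.8% of genes). Ngp passed the filter through its acute libraries and Camp through its chronic ones. This favours groups that lie apart, so nothing is read from this count.

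The difference between codes was of the same order as that between oxygen levels. Code Z was set against the others because its libraries had already been seen to stand apart. They share a code, so the SEs and p-values of this contrast measure spread within codes and not between codes. In a limma fit of all 9 libraries with group and code, code Z differed from the mean of X and Y in 6 of the 8 genes, where 32.7% of 11065 genes were called. Higher in code Z, as were 24.5% of genes, were Wfdc21 (3.25, SE 0.178), Lcn2 (2.80, SE 0.169), Slpi (1.58, SE 0.106), Mmp8 (1.47, SE 0.242) and S100a8 (0.97, SE 0.0724), with limma adjusted p-values between 8.06e-05 and 0.005, and Ngp was lower, as were 8.11% of genes (-1.21, SE 0.362, limma adjusted p = 0.0405). Ngp entered this fit only through the X and Y libraries of standard oxygen and acute hypoxia, where it was high. This favours a lower value in code Z. The Ngp call was lost on leaving out any single library except chronic replicates 2 and 3 (limma adjusted p between 0.0536 and 0.168). Wfdc17 (-0.29) and Camp (0.66) did not pass. With the code in the fit, Mmp8 and Slpi were higher both in code Z and in chronic hypoxia, while S100a8 and Lcn2 were higher in code Z and lower in chronic hypoxia.

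**Figure D3:**
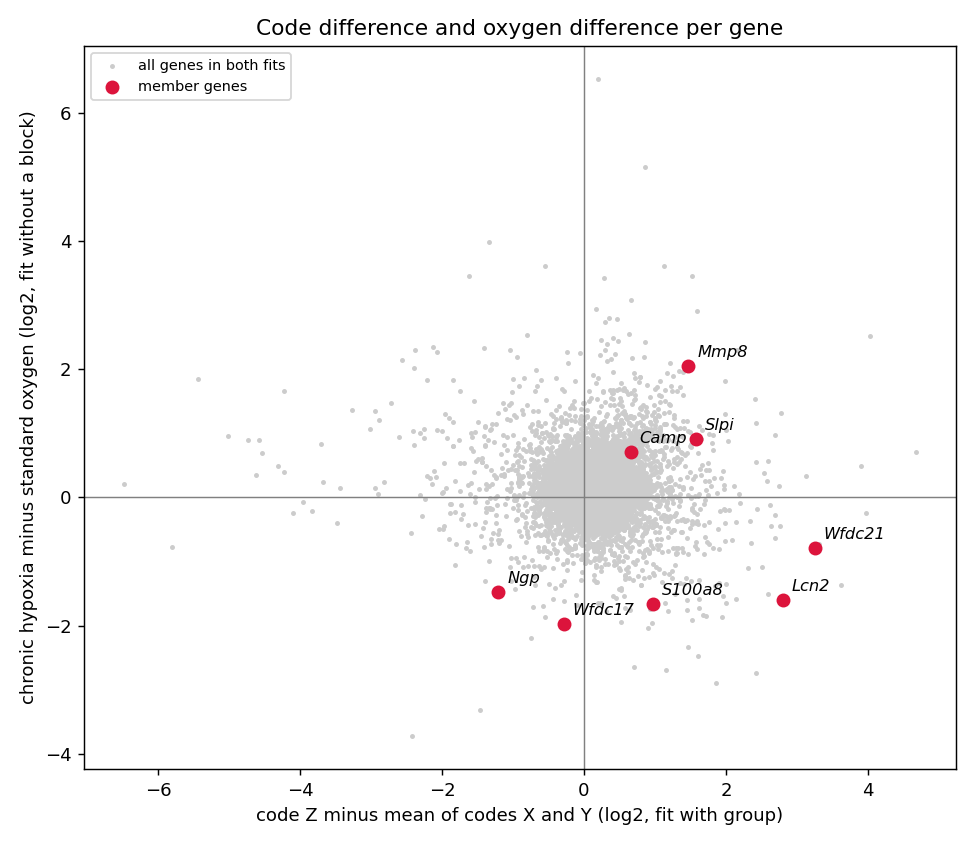
Each point is a gene, with its difference between code Z and the mean of codes X and Y on the horizontal axis and its difference between chronic hypoxia and standard oxygen on the vertical axis, both in log2 units; the genes described here are named. Wfdc21 and Lcn2 lie far to the right and below 0, Mmp8 and Slpi lie above and to the right, and Wfdc17 lies low near the vertical line.

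The genes were also compared by their course over the libraries. Over the 9 libraries, which share 3 codes and 3 groups, Pearson's r of log2(TPM + 1) between Lcn2 and Slpi was 0.51, and after subtraction of the code means it was -0.999. For S100a8 and Mmp8 these values were -0.42 and -0.97. With the code means removed, r mostly reflects chronic hypoxia against the other groups, a difference in view when the genes were chosen. Values near 1 or -1 are then expected of genes that differ there, and no share over all gene pairs was computed. Of 11065 genes, those whose course over the 9 libraries was most like that of S100a8 were Psen2 (r = 0.995), Phospho1 and Myo6. Mmp8 was followed most closely by 4930579G24Rik (r = 0.990), Mmp9 (r = 0.988) and Espl1. For Lcn2 the nearest was Utp4 (r = 0.982), for Wfdc17 Bcl2a1a (r = 0.985), for Wfdc21 Cd24a (r = 0.986), for Slpi D10Wsu102e (r = 0.992), for Ngp Scd1 (r = 0.978) and for Camp Crbn (r = 0.978).

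Markers of the cell types that could supply these transcripts were set beside them. Among 12 macrophage identity genes, 11 were at 1 TPM or more in every library, and their summed level was 4513 to 8077 TPM. The neutrophil primary granule genes Mpo, Elane, Ctsg and Ms4a3 were below 1 TPM in all 9 libraries and the 7 genes of that list summed to between 9.87 and 16.8 TPM. The sum hides opposite differences: Serpinb1a was higher in code Z (1.31, limma adjusted p = 0.0147) and Cst7, the main part of the sum in codes X and Y, was lower (-1.22, limma adjusted p = 0.0195). Prtn3 was at 2.10, 1.007 and 4.18 TPM in the code Z libraries of standard oxygen, acute hypoxia and chronic hypoxia, and at 0 in 5 of the 6 others. Of 12 neutrophil identity genes, Retnlg was listed at 0 in every library and Ly6g, Cxcr2 and Gfi1 stayed below 1 TPM. Their sum was 1462 to 3039 TPM in codes X and Y and 7349 to 9202 TPM in code Z, nearly all of it from Stfa3, a stefin. Of the 7 tested, 5 were higher in code Z and Csf3r, the receptor for G-CSF, was lower, at 1.70 to 2.13 TPM against 2.77 to 8.63 TPM in X and Y. Over all genes 24.5% were called higher in code Z and 8.11% lower. Padi4, not tested, was at 0.0285 to 0.0685 TPM in code Z and 0.881 to 2.03 TPM in X and Y. Cebpe, the C/EBP factor of secondary granule genes, was at 30.6 to 36.1 TPM in code Z and at 0.732 to 1.92 TPM in X and Y (code difference 3.90, limma adjusted p = 4.49e-06). The 4 monocyte genes summed to 198 to 978 TPM in code Z and 43.2 to 80.6 TPM in the others. The macrophage gene C1qa was lower in code Z by -5.44 (limma adjusted p = 4.34e-05), and 8 of the 12 macrophage genes were called lower there, as were 8.11% of all genes. These p-values for code Z also measure spread within codes and not between codes. The part of these differences in the member genes was not tested, and in bulk RNA fewer cells of a type and less RNA per cell cannot be told apart.

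**Figure D4:**
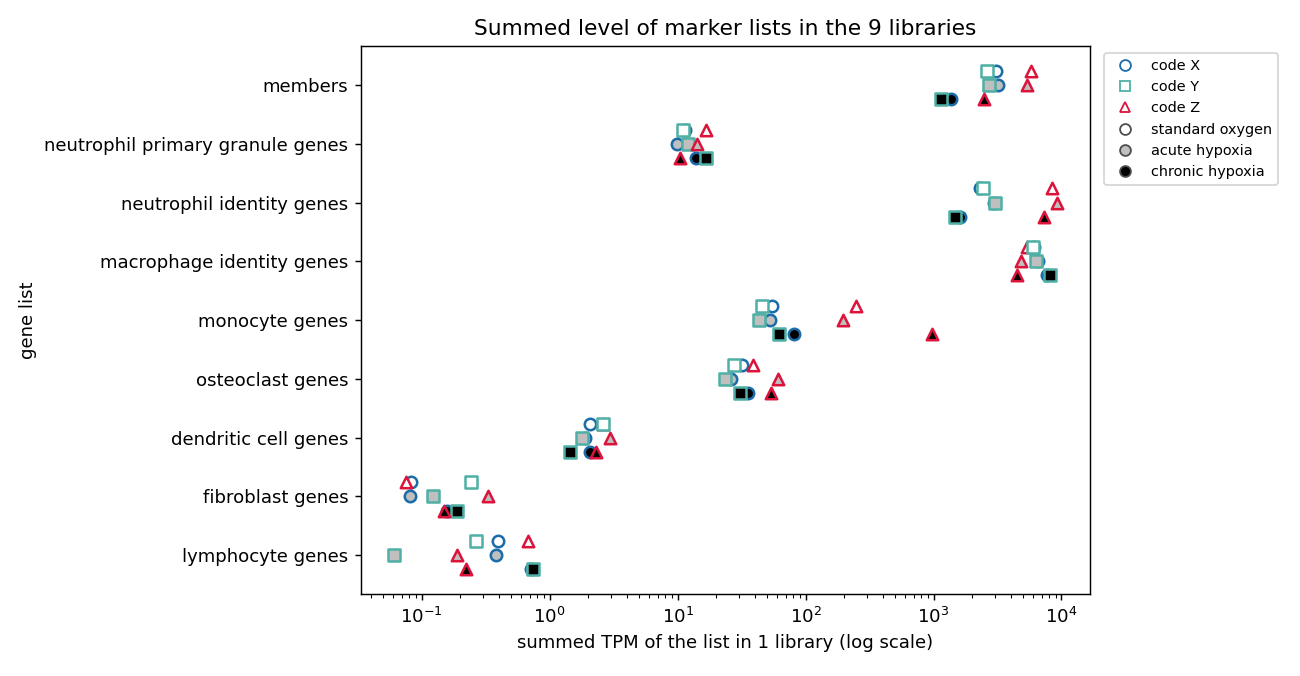
Summed TPM of each marker list (rows) in each of the 9 libraries on a log axis; the marker shape gives the code and the fill the oxygen group. The neutrophil identity and monocyte lists are highest in the 3 code Z libraries (triangles), while the primary granule list, whose genes Serpinb1a and Cst7 differ between codes in opposite directions, sums to 9.87 to 16.8 TPM.

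Between chronic hypoxia and standard oxygen the summed primary granule genes overlapped, at 10.4 to 16.8 and 11.03 to 16.6 TPM. These sums are mostly Cst7 and Serpinb1a, with Prtn3 in code Z, so they say little of Mpo, Elane, Ctsg and Ms4a3. Of the 7 neutrophil identity genes tested, limma with the code block called 1 higher in chronic hypoxia, Trem1 (1.79, adjusted p = 0.0228). It called 1 lower, Stfa2 (-1.36, adjusted p = 0.0297). Over all genes the same block gave 15.1% called higher and 3.30% lower. The macrophage genes C1qa (1.84, limma adjusted p = 0.0287) and Itgam (0.51, limma adjusted p = 0.0413) were also higher with the block, and none of these 4 passed without it. Itgam shares 71.7% of its 75-base stretches with another listed gene, so its value is uncertain. C1qa was at 66.8, 71.9 and 1.44 TPM in standard oxygen and at 281, 443 and 3.41 TPM in chronic hypoxia. The monocyte genes summed to 55.1, 45.7 and 247 TPM in standard oxygen and to 80.6, 61.8 and 978 TPM in chronic hypoxia. Of these 4 genes 2 were below 1 TPM in every library. The 2 tested were Ly6c2 and Ccr2, and limma called 0 of them, without a block or with the code block. The part of these genes in the chronic differences of the members was not tested.

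Among 12 other secondary and tertiary granule genes 7 were tested against standard oxygen. None passed without a block in limma, and with the code block 4 were higher (Cfp, Chil3, Hp and Mmp9) and Cybb was lower. Over all genes 15.1% were called higher with that block and 3.30% lower. Chil3 entered only through its chronic libraries, at 1.62, 2.07 and 3.40 TPM against 0.275, 0.153 and 1.12 TPM in standard oxygen, and shares 14.2% of its 75-base stretches with other listed genes. Hp, haptoglobin, was at 71.7, 70.8 and 441 TPM in standard oxygen and at 240.2, 209.8 and 1105 TPM in chronic hypoxia (1.54, limma adjusted p = 0.00689 with the code block). Mmp9, the gelatinase of tertiary granules, was at 981, 984 and 1927 TPM in standard oxygen and at 2271, 2228 and 2781 TPM in chronic hypoxia (0.97, limma adjusted p = 0.0236 with the code block). Fibroblast genes summed to at most 0.327 TPM, lymphocyte genes to at most 0.735 TPM and mast cell and basophil genes to at most 0.0695 TPM.

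Genes of the same families were examined next. Of 14 other S100 genes 6 were tested. Between chronic hypoxia and standard oxygen limma called 0 of them without a block (2.69% of all genes) and 4 with the code block (18.4% of all genes). S100a4 (0.59) and S100a10 (0.57) were higher and S100a1 (-0.38) and S100a11 (-0.53) lower, and S100a4 and S100a11 share 53.8% and 37.8% of their 75-base stretches with other listed genes, so their values are uncertain. Of 20 other WAP domain genes 18 were below 1 TPM in every library and 11 were at 0 in all. Wfdc18, which lies between Wfdc17 and Wfdc21, was at 0.504 to 2.55 TPM.

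Of 18 receptors and partners of the proteins 13 were tested. Against standard oxygen 2 rose in chronic hypoxia without a block: Lrp1, an endocytic receptor that takes up lactoferrin and protease complexes (0.80, limma adjusted p = 0.0444), and P2rx7, an ATP-gated channel (0.62, limma adjusted p = 0.0498). Over all genes 2.69% were called without a block. With the code block 5 of the 13 were higher and 2 lower, where 15.1% of all genes were higher and 3.30% lower. Cd14, the co-receptor of TLR4, fell by 0.88 in chronic against acute hypoxia (limma adjusted p = 0.0486). Of 18 transcription factors and cytokine signals, 15 were tested. Without a block, Cebpa, a C/EBP factor of the myeloid lineage, fell by 0.65 in chronic hypoxia against standard oxygen (limma adjusted p = 0.0391). Nfkbid, an atypical inhibitor of NF-kappaB, fell there by 1.57 (limma adjusted p = 0.0475). With the code block 3 of the 15 were higher and 3 lower, where 15.1% of all genes were higher and 3.30% lower. They were Cebpa, Cebpb, Cebpd, Hif1a, Nfkb1 and Nfkbid. Cebpb shares 16.7% of its 75-base stretches with another listed gene. Nfkbid was already lower in acute hypoxia, from 116, 113 and 133 TPM to 48.3, 45.8 and 51.1 TPM (-1.30, limma adjusted p = 0.0244). Cebpd was higher in chronic than in acute hypoxia (1.05, limma adjusted p = 0.0236), at 39.4, 44.1 and 41.4 TPM against 18.2, 19.5 and 21.0 TPM, and another listed gene holds 13.3% of its 75-base stretches.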

How the data were processed

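Gene expression was measured by mRNA sequencing in 9 cultures, 3 per group. The values are TPM deposited by the authors in 3 tables of 34866 genes and 6 libraries each; per the submitters' processing notes, FastQC, STAR, featureCounts and GRCm38 were used, with versions not given in the sources used here. Depth is unknown, so no counting error is attached, and the spread over 3 libraries is the only error; whether replicates came from separate animals is not stated. Each comparison was fitted on its 6 libraries with limma 3.58.1 in R 4.3.3 (lmFit, eBayes with a trend, two-sided) on log2(TPM + 1), over genes with a mean of at least 1 TPM, with Benjamini-Hochberg adjustment over all genes tested and a threshold of 0.05. Fold changes on this scale understate those of low genes. The fitting code was tested on simulated data.

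The members and all gene lists were chosen with earlier results of these data known. Named outside the members are called genes, the highest and lowest of each list, list genes by their level, and the 3 genes most like each member.

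The replicate numbers of the titles and the codes were checked as pairings. Deviations from group means correlated in every pair of 1 code (0.375 to 0.631), but not in every pair of 1 title number (-0.508 to 0.631), so the code was used as the block. Code Z stood apart in every group, so the deviations of X and Y both tend to run opposite to Z. The check therefore shows that the code Z libraries are alike, and could not show that X pairs with X and Y with Y. Alternatives were other pseudocounts, filters, scalings and blocks, no trend, all 9 libraries in 1 fit, no code Z libraries, and each library left out in turn.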

Additional observations from a re-analysis of the deposited data

How the results depend on the processing

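Acute against standard oxygen gave 0 called members under every alternative. For chronic against standard oxygen the count of 1 became 0 with no filter on low values, 0 without the trend, 2 with rescaling, 2 with all 9 libraries in 1 fit, and 6 without code Z. A replicate block by title number gave 0, the block by code 5, with rescaling 6 and with all 9 libraries 7. Chronic against acute went from 0 to 2 with all 9 libraries, to 5 with the replicate block by title number or by code and with code and rescaling, to 6 with code and all 9 libraries, and to 6 without code Z. Leaving out 1 library gave 0 to 2 in both chronic comparisons. The code contrast fell from 6 called to 3 with no group term and gave 5 to 7 with 1 library left out. It gave 5 higher and 0 lower, so no Ngp call, with a pseudocount of 0.1, with no filter on low values and with a mean TPM of at least 5. The causes were not tested.

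Wfdc17 kept its call in chronic against standard oxygen without chronic replicate 3 (limma adjusted p = 0.0276) and lost it without chronic replicate 1 (0.0833) or 2 (0.172) and without standard replicate 1 (0.182), 2 (0.0624) or 3 (0.15).

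Directions reversed as follows. In acute against standard oxygen, quantile normalization gave -0.011 for Mmp8, and without code Z Wfdc21 was 0.10 and Wfdc17 0.048. With 1 library left out, the acute differences ranged from -0.16 to 0.44 for S100a8, -0.98 to 0.69 for Lcn2, -0.67 to 0.55 for Ngp, -0.56 to 0.71 for Mmp8, -0.25 to 0.021 for Wfdc17, -1.06 to 1.14 for Wfdc21 and -0.50 to 0.67 for Slpi. Wfdc21 ranged from -1.86 to 0.36 in chronic against standard and from -1.84 to 0.26 in chronic against acute, turning without the code Z library of standard oxygen or of acute hypoxia, and Wfdc17 from -0.60 to 0.13 in the code contrast. In the chronic comparisons 146 of 148 single-gene values each kept their direction. The unknown depth limits what can be said of Ngp, Camp, Ltf and S100a9.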
